A study of Mus musculus with 6 samples.

Results

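Glycolysis and hypoxia genes are 32 mouse genes that encode the enzymes turning glucose into lactate, the transporters that move both across the cell membrane, the oxygen sensors, and further genes known to be induced when oxygen is low. The genes were matched by symbol from a list drawn up with earlier results of these data known, and 28 of the 32 were measured among 18193 genes on the arrays. Gapdh and Bnip3l are represented by probe sets that also list pseudogenes, so they were kept out of the gene tests, and Gpi1 and Eno1 were not analysed here. RNA came from 6 samples of CD4+CD25- lymph node T cells of C57BL/6 mice. All 6 were grown for 2 days on plates coated with anti-CD3 (2 µg/ml) and anti-CD28 (1 µg/ml), together with 5 ng/ml of TGF-β1 and 200 U/ml of IL-2, which steers naive cells towards a regulatory T cell (Treg) phenotype, and were transduced on day 1. The 3 control samples carried a retrovirus with a bHLH-ER construct, and the 3 E47 samples carried E47-ER. E47 is a basic helix-loop-helix transcription factor made from the Tcf3 gene, and the ER part, a ligand-binding domain of the estrogen receptor, holds a fused protein out of the nucleus until tamoxifen is added. Both groups were sorted as CD4+Thy1.1+ and then received 1 µM tamoxifen for 6 hours with IL-2 and antibodies, so no sample lacked tamoxifen. Mice were 7 weeks old in experiment 1, 8 weeks in experiment 2 and 9 weeks in experiment 3, and a sample pooled 3 mice in the first pair of experiments and 4 in the last. An experiment yielded 1 sample of each construct, and the replicate number is the experiment. The labels do not describe the control construct further.

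Glycolysis splits glucose in the cytosol, and activated T cells use it heavily even when oxygen is present, passing much of the carbon out as lactate. Hexokinases trap glucose, phosphofructokinases commit it to breakdown, and lactate dehydrogenase regenerates the cofactor that keeps the chain running. Hypoxia-inducible factor 1α (HIF-1α, gene Hif1a) is destroyed when prolyl hydroxylases of the Egln family, which need oxygen, have modified it. When it escapes, it binds DNA at short sites with the core ACGTG or GCGTG near many glycolytic genes and near genes such as Vegfa, Bnip3 and Egln3. In T cells HIF-1α also accumulates after receptor stimulation in normal oxygen.

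RefSeq promoters (GRCm38.p6) were found for 26 of the 28 genes, and the 250 bases before the first listed start were searched on both strands, merging overlapping matches. The HIF core, ACGTG or GCGTG, was present in 21 of 26 promoters (80.8%), against 7187 of 14452 promoters of all measured genes (49.7%). The 26 promoters were also richer in G and C, with a median of 65.2% against 57.6%, and the part of base composition in this share was not tested. The E-box forms CAGGTG and CAGCTG, to which E47 is known to bind, were present in 6 of 26 (23.1%) against 27.1% of measured genes. Promoters are shown for Aldoc, Pdk1 and Hk2, the genes with the lowest p between experiments among those with an entry, and for Vegfa, added after its values were seen because it had the lowest p between constructs. Capitals mark the HIF core on either strand, and each sequence runs 5′ to 3′ along the gene's own strand.
Aldoc, chr11:78322823-78323072, plus strand: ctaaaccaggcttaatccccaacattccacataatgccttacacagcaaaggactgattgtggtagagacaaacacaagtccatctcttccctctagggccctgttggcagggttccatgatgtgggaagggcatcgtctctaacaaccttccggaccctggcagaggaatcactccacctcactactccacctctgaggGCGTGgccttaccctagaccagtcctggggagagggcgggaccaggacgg
Pdk1, chr2:71872974-71873223, plus strand: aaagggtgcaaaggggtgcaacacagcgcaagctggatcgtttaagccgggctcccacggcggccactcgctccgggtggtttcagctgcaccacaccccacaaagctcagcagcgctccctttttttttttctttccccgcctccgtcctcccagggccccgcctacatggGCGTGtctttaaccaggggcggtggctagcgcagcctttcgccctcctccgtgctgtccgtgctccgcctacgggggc
Hk2, chr6:82774455-82774704, minus strand: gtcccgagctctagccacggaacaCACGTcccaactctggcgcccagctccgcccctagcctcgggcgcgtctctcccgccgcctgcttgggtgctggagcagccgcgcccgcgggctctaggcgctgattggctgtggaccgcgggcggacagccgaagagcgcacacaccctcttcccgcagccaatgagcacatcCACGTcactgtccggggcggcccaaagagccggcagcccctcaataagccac
Vegfa, chr17:46032378-46032627, minus strand: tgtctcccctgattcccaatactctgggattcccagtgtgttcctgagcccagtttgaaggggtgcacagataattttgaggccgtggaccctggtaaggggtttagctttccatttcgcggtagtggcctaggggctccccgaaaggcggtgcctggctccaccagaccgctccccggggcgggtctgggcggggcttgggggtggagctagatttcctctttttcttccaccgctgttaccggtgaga
Aldoc and Pdk1 each held 1 core, Hk2 held 2, and this window of Vegfa held 0. Of these 4 promoters Pdk1 alone held 1 of the E-box forms.

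The arrays were alike in overall level, with median probe set intensities between 34.3 and 35.4. T cell markers (7 of 8 listed measured) were all above the median probe set, and the summed intensity of the 7 Treg markers was 14033 to 15407 in control and 11956 to 13679 in E47 samples. Tnfrsf18 was the brightest of these 7, with log2 means of 12.72 in control and 12.46 in E47, and Foxp3 the dimmest, with 6.96 and 6.75. The sum was lowest in experiment 2 in both groups, where Foxp3 was highest. Nrp1 was higher in E47 by 0.09, the others were lower on average, and 0 of 7 passed in the paired fit described below. B cell, NK cell and myeloid lists summed to between 151 and 336 on every array. Control probe sets for Gapdh, the glyceraldehyde-3-phosphate dehydrogenase of the chain, differed between E47 and control by -0.02, -0.03 and 0.01 on the log2 scale at the 3′ end, the middle and the 5′ end. The 3′ minus 5′ difference of Gapdh, a sign of RNA integrity, lay between -0.15 and -0.07 on all 6 arrays. The control probe sets for 18S ribosomal RNA were higher in E47, by 0.28 at the 3′ end, 0.19 in the middle and 0.17 at the 5′ end. At the 5′ end they had 12.66, 13.02 and 13.07 in control against 12.79, 13.25 and 13.20 with E47, so each pair went the same way.

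E47 samples were compared with control samples to ask which of these genes differed between the constructs. Vegfa, the gene of vascular endothelial growth factor A, was the 1 gene that passed, and with all 6 arrays only where the experiments were taken as pairs. All values below are log2 intensities unless another unit is given, and each standard error (SE) is that of the paired fit. The enzymes of glycolysis lay mostly slightly below their controls and the 3 oxygen-sensing genes above, without passing the test. For Egln1, 1 of these 3, the difference was only 0.03. With the construct as the only term in the fit (unpaired fit), 0 of 28 genes passed an adjusted p of 0.05 in limma, against 0.247% of all genes. At an unadjusted p under 0.05 there were 3, Vegfa, Pfkp and Egln3 (10.7%, against 6.65% of all genes). With the experiment as a block (paired fit), 1 gene rose, Vegfa, and 0 fell, against 0.781% of all genes that rose and 0.363% that fell, or 1.14% in all. The unadjusted p was under 0.05 for 6 genes in the paired fit (21.4%, against 12.0% of all genes), of which Vegfa, Egln3, Hif1a, Pdk1 and Adm were higher and Pfkp was lower. The median log2 difference was -0.09 over the 28 genes and -0.03 over all genes, and the mean was below 0 for 17 of 28 (60.7%, against 57.7%). The level was lower in E47 in all 3 experiments for 11 of 28 genes (39.3%, against 19.9% of all genes) and higher in all 3 for 7 (25.0%, against 14.4%). The sign of the difference was not shared by all probe sets of Hk1, Aldoc, Pfkfb3, Slc2a3 and Higd1a. Beside these differences, 1 of 7 T cell markers rose, Thy1, the gene of the antigen used in the sort, by 0.82 (adjusted p = 0.0138, paired), and 0 markers of the other lists passed. The summed intensity of the CD8 markers was higher in E47 in all 3 pairs, at 178, 209 and 140 in control against 192, 327 and 189. The NK sum was also higher in each pair, at 152, 236 and 173 in control against 188, 298 and 245. It followed Eomes, the brightest of the 4 NK markers measured. Klrk1 and Klra8 differed by 0.07 and 0.13, and Ncr1, a dim marker, was lower in each pair, by -0.13, -0.11 and -0.12. In these lists Eomes differed by 0.60 (adjusted p = 0.0552, paired) and Cd8b1 by 0.51 (0.185). The part of these markers and of the 18S difference in the results was not tested.

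**Figure D1:**
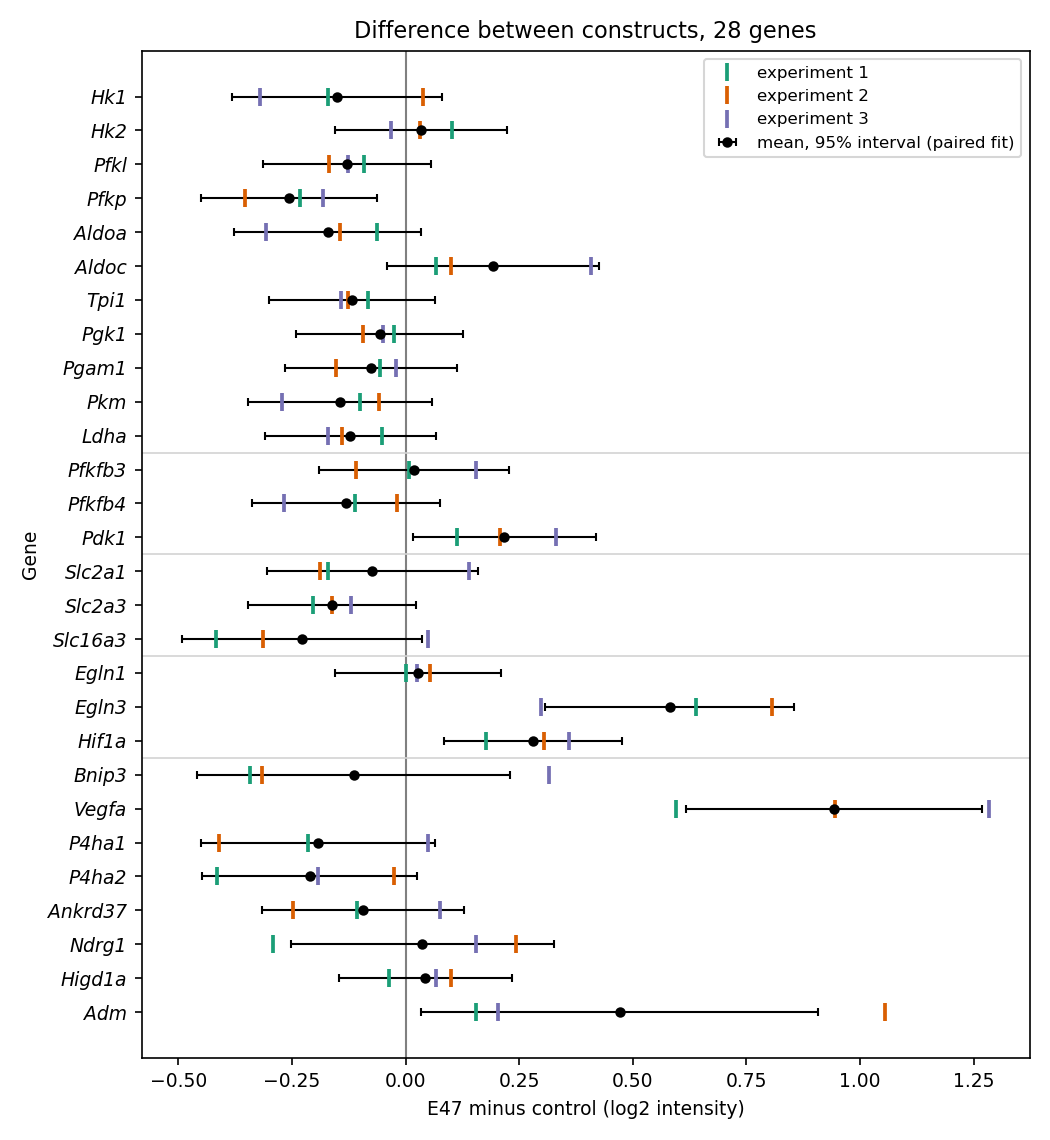
Difference between E47 and control on the log2 intensity scale (x axis) for each of the 28 genes (y axis), grouped by role; black points and bars give the mean and 95% interval of the paired fit, and coloured ticks the 3 experiments. Most intervals include 0, and Vegfa lies furthest to the right, at 0.94 with an interval from 0.62 to 1.27.

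In the glycolytic chain, 0 of 11 enzymes passed in either fit, and 9 of 11 had a mean difference below 0, where 57.7% of all genes did. The 9 of 11 also held after median centring, quantile and cyclic loess normalization. These settings changed little, with a median over all genes of -0.03 before and -0.01, -0.03 and -0.01 after. The mean differences ran from -0.26 (Pfkp) to 0.19 (Aldoc). Leaving out Aldoc, the 95% intervals of the paired fit lay within -0.45 and 0.22 on the log2 scale for the other 10 enzymes. Of these 10 intervals, that of Pfkp alone left out 0. Ldha, the lactate dehydrogenase subunit that favours lactate formation, had 13.61, 13.46 and 13.57 in control replicates 1, 2 and 3 and 13.56, 13.32 and 13.40 with E47. The groups overlapped, and each E47 sample was slightly below its own control (difference -0.12, SE 0.08, adjusted p = 0.580, paired). Pgk1, which makes the first ATP of the pathway, had 13.74, 13.67 and 13.65 in control against 13.72, 13.57 and 13.60 with E47. Its 3 probe sets differed by -0.06, -0.05 and -0.0029, and in each of them both samples of experiment 1 were above the other 4.

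Pfkp, the platelet form of phosphofructokinase, was the enzyme of the chain with the lowest p. It had 10.85, 10.79 and 10.79 in control replicates 1, 2 and 3 and 10.62, 10.44 and 10.61 with E47, so the groups did not overlap. The difference was -0.26 (SE 0.08), with adjusted p = 0.652 unpaired and 0.299 paired, and its other 2 probe sets had differences of -0.14 and -0.19. In those 2 sets the groups overlapped, and each set had a pair at 0.02. Groups that did not overlap and were lower in E47 were found for 3 of 28 genes, Pfkp, Aldoa and Tpi1, against 7.13% of all genes. Aldoa, the main aldolase of most cells, differed by -0.17 (adjusted p = 0.494, paired), and its 5 probe sets by -0.23 to -0.04. Tpi1, triose phosphate isomerase, differed by -0.12 (adjusted p = 0.583, paired). Both represented sets carry the suffix of probe sets whose probes may also match other transcripts.

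Aldoc differed by 0.19 and was higher in each pair (adjusted p = 0.499, paired). Of the 5 enzymes of the chain that remain, Hk2 alone had a mean above 0. Hk1, a hexokinase expressed in most tissues, differed by -0.15, and Hk2, the inducible hexokinase of growing cells, by 0.03 with pairs of 0.10, 0.03 and -0.03. Pfkl, the liver form of phosphofructokinase, differed by -0.13, Pgam1, phosphoglycerate mutase, by -0.08 and Pkm, pyruvate kinase, by -0.14. Pfkl, Pgam1 and Pkm were lower in each of the 3 pairs. The adjusted p of these 5 genes was between 0.550 and 0.889 in the paired fit.

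Of 3 enzymes that regulate the flow, 0 passed. Pdk1, a kinase that inhibits pyruvate dehydrogenase and so keeps pyruvate out of mitochondria, had 9.66, 10.15 and 9.69 in control replicates 1, 2 and 3 and 9.77, 10.36 and 10.02 with E47. Each E47 sample was above its control, by 0.11, 0.21 and 0.33, but the groups overlapped, with experiment 2 highest in both (adjusted p = 0.382, paired). The 4 Pdk1 probe sets differed by 0.05 to 0.28, and 2 of them were higher in each pair. Pfkfb3 and Pfkfb4, which set the level of fructose 2,6-bisphosphate, an activator of phosphofructokinase, differed by 0.02 and -0.13. Quantile normalization turned the sign of Pfkfb3.

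Of 3 transporters 0 passed, and the means of all 3 were lower in E47, where 57.7% of all genes had a mean below 0. The 3 means stayed lower under each normalization tried. Slc2a1, the glucose transporter GLUT1, had 11.07, 10.97 and 11.03 in control replicates 1, 2 and 3 and 10.90, 10.78 and 11.17 with E47, overlapping groups with opposite pairs. Slc2a3, the high-affinity transporter GLUT3, was lower in all 3 experiments, with pairs of -0.20, -0.16 and -0.12 (adjusted p = 0.473, paired). Slc16a3, the lactate exporter MCT4, had group mean intensities of 31.4 in control and 26.8 in E47, below the lowest array median of 34.3, so its difference of -0.23 rests on a dim probe set.

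**Figure D2:**
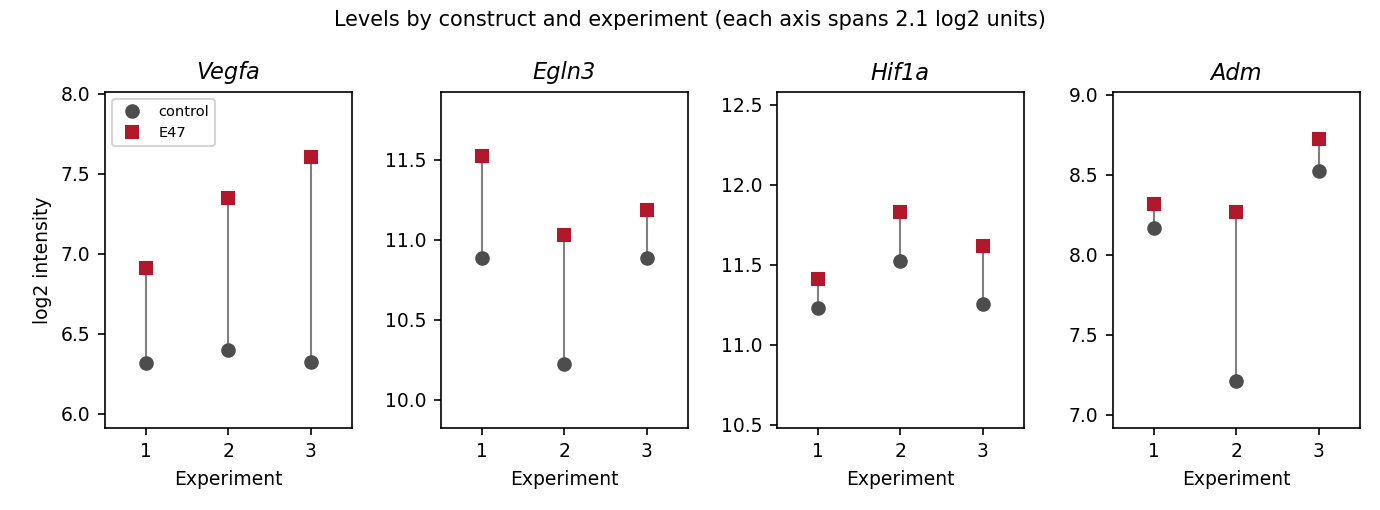
Log2 intensity (y axis) of Vegfa, Egln3, Hif1a and Adm by experiment (x axis) in control (circles) and E47 samples (squares), with grey lines joining the 2 samples of an experiment. Every square lies above its circle, the groups are apart for Vegfa and Egln3, and the Adm control of experiment 2 lies at 7.21.

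Among the oxygen-sensing genes, the hydroxylase genes Egln1 and Egln3 and Hif1a, 0 of 3 passed, and all 3 were higher in E47 in each experiment. For Egln1 the pairs were only 0.0018, 0.05 and 0.02. Hif1a had 11.23, 11.52 and 11.26 in control replicates 1, 2 and 3 and 11.41, 11.83 and 11.61 with E47. The lowest E47 sample was below the highest control sample, and the pairs differed by 0.18, 0.30 and 0.36. The mean difference was 0.28, with adjusted p = 0.777 unpaired and 0.265 paired (95% interval 0.08 to 0.48). Its 4 probe sets differed by 0.16 to 0.29.

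Egln3, the prolyl hydroxylase PHD3, which is itself a HIF target, had 10.89, 10.22 and 10.89 in control replicates 1, 2 and 3 and 11.53, 11.03 and 11.19 with E47. All E47 samples were above all control samples, which was also so for Vegfa (2 of 28 genes, against 4.65% of all genes). The difference was 0.58 (SE 0.11), with adjusted p = 0.685 unpaired and 0.0969 paired, and the second probe set differed by 0.46. Egln1, the main oxygen sensor PHD2, differed by 0.03, with a 95% interval from -0.16 to 0.21 in the paired fit.

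Vegfa had 6.31, 6.40 and 6.32 in control replicates 1, 2 and 3 and 6.91, 7.35 and 7.61 with E47. The 3 control samples were close together, and the E47 samples were all higher and further apart, by 0.60, 0.95 and 1.28 over their own controls. Vegfa rose 1.92-fold when experiments were paired (log2 difference 0.94, SE 0.13, adjusted p = 0.0377), while the unpaired fit gave 0.147. The call in the paired fit was lost without experiment 2 (adjusted p = 0.194) and without experiment 3 (0.161), and kept without experiment 1 (0.00651). A second, dimmer Vegfa probe set had 4.84, 5.60 and 5.29 in control replicates and 5.15, 5.48 and 5.36 with E47, a difference of 0.09. When p-values were adjusted across every probe set, the brighter one had adjusted p = 0.0635 (paired). The mean over both sets differed by 0.51 (adjusted p = 0.576, unpaired). The difference is the same in both fits and was seen in 1 of 2 probe sets, and with all 6 arrays its adjusted p passed only with the pairing. The unpaired fit without E47 replicate 1 gave adjusted p = 0.0310.

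Adm encodes adrenomedullin, a vasodilator peptide induced by hypoxia in many cells. It had 8.17, 7.21 and 8.52 in control replicates 1, 2 and 3 and 8.32, 8.27 and 8.73 with E47, so 1 control sample, that of experiment 2, stood below the other 5. The pairs differed by 0.15, 1.06 and 0.20, and the mean difference of 0.47 did not pass (adjusted p = 0.383, paired). Its other probe set had the same low control sample, at 6.76, and a difference of 0.38.

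The other hypoxia-induced genes spread around 0. Bnip3, a mitochondrial protein that promotes mitophagy, had pairs of -0.34 and -0.32 in experiments 1 and 2 and 0.32 in experiment 3. P4ha1 and P4ha2, catalytic subunits of collagen prolyl 4-hydroxylase, differed by -0.19 and -0.21. The other P4ha1 probe set differed by -0.43, lower in each pair (adjusted p = 0.321, paired, across every probe set). P4ha2 was dim, with group mean intensities of 28.7 in control and 24.8 in E47. Ankrd37, a small ankyrin repeat protein, differed by -0.09 and Higd1a, a mitochondrial protein linked to respiratory complexes, by 0.04. Ndrg1, a stress-responsive protein, differed by 0.04 with pairs of -0.29, 0.24 and 0.16. The adjusted p of these 6 genes was between 0.469 and 0.926 in the paired fit.

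The same genes were then compared across the 3 experiments, with the construct kept in the fit. An experiment held 1 sample per construct, so no culture of a construct was repeated within an experiment. Mouse age, and in experiment 3 the number of mice pooled, changed with the experiment and cannot be told apart from it. Ndrg1 and Aldoc, the brain-type aldolase, differed between experiments in an F test with 2 degrees of freedom, which is 2 of 28 genes, against 3.20% of all genes. The unadjusted p was under 0.05 for 10 of 28 (35.7%, against 17.9% of all genes). The range between experiment means had a median of 0.12 in the chain apart from Aldoc (0.04 to 0.49), against 0.19 over all genes and 0.34 for the 8 other hypoxia-induced genes. Levels of experiment 2 were above those of the other 4 samples for 4 genes, Ndrg1, Aldoc, Pdk1 and Egln1 (14.3%, against 11.1% of all genes), and below them for 4, Hk2, Pgam1, P4ha2 and Higd1a (14.3%, against 15.6%). Both samples of experiment 1 were above the other 4 for Pgk1, Pkm and Higd1a (8.28% of all genes) and below for Pfkfb4, Egln1 and Ndrg1 (6.71%). Both samples of experiment 3 were above for Hk2, Pfkl, Pfkfb4, Ankrd37 and Adm (8.49%) and below for Aldoc (7.54%). Between single experiments, 1 gene passed from 1 to 2, Ndrg1 (2.73% of all genes), 0 from 1 to 3 (0.00550%) and 2 from 2 to 3, Aldoc and Hk2 (4.29%). The place of Egln1 turned with the probe set. Its second set had 8.10, 7.87 and 7.99 in control against 8.11, 7.89 and 8.01 with E47, so experiment 1 was highest there and experiment 2 lowest. For Higd1a, a dim probe set had experiment 2 above the other 4 samples.

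**Figure D3:**
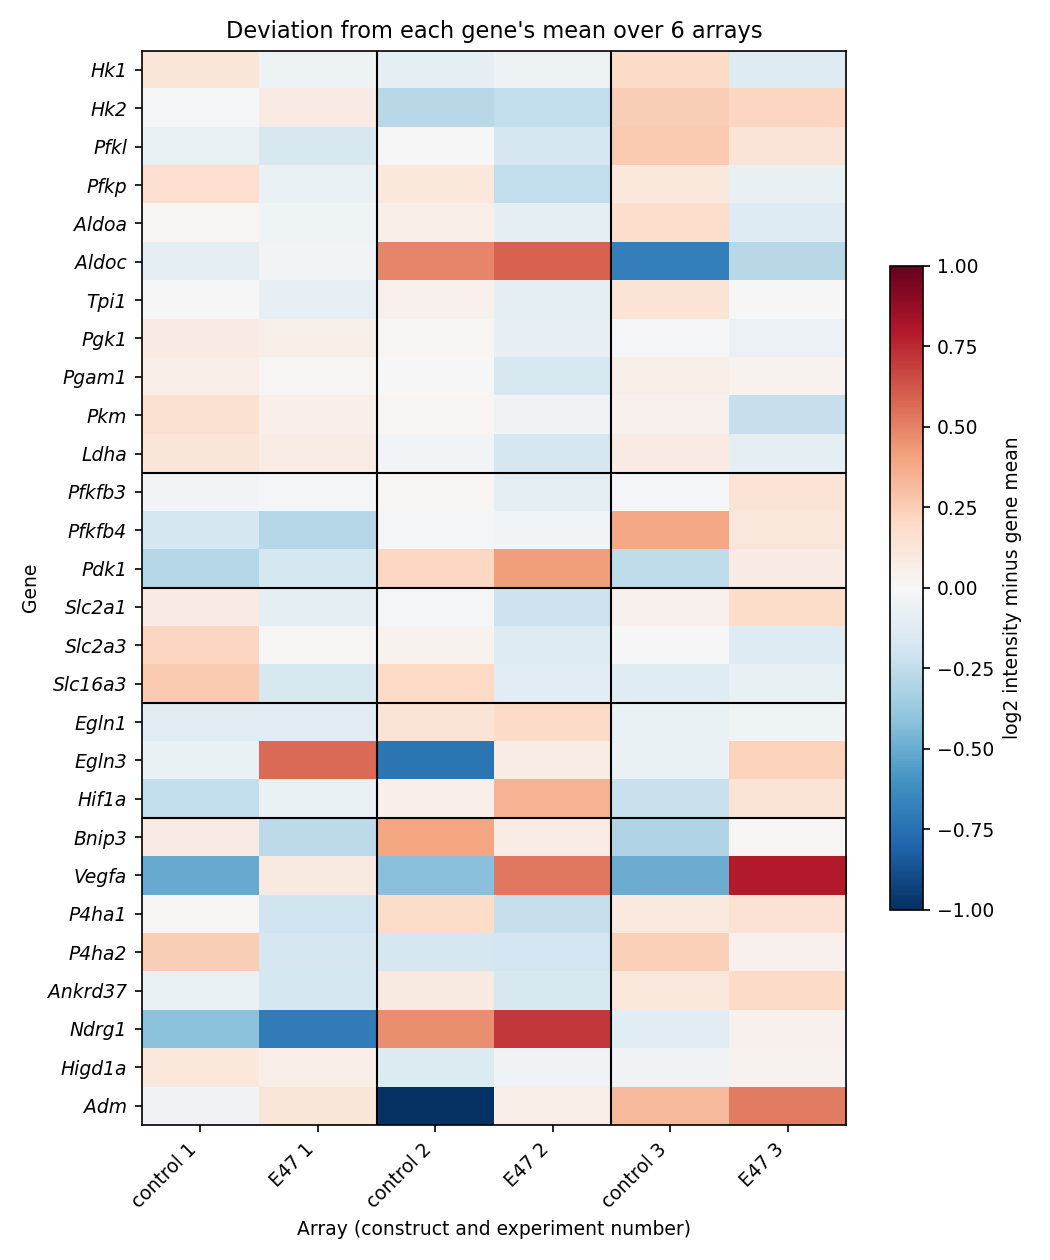
Heat map of log2 intensity minus the gene's mean over 6 arrays (colour) for the 28 genes (rows, grouped by role) and the 6 arrays (columns, ordered by experiment). Most of the glycolytic chain is pale, while Aldoc and Ndrg1 are red in both samples of experiment 2 and the Adm control of that experiment is dark blue.

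Ndrg1 had 8.18, 9.06 and 8.48 in control replicates 1, 2 and 3 and 7.89, 9.30 and 8.64 with E47. Both constructs gave the same order, with experiment 1 lowest and experiment 2 highest. Experiment 2 exceeded experiment 1 by 1.14 (SE 0.15, adjusted p = 0.0170), and the F test had adjusted p = 0.0291. Both samples of experiment 1 were below the other 4 in all 5 of its probe sets, and both samples of experiment 2 were above the other 4 in 4 of them. Adjusted across every probe set, 2 of the 5 passed the F test (0.0138 and 0.0495). The brightest, which represents the gene here, had 0.0504, and its name carries the suffix for probes that may match other transcripts. The call was lost without either sample of experiment 2 (adjusted p = 0.0924 without the control and 0.206 without E47) and without either sample of experiment 3 (0.0904 and 0.0920) and without experiment 2 as a whole (0.618).

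Aldoc had 7.23, 7.81 and 6.64 in control replicates 1, 2 and 3 and 7.30, 7.91 and 7.05 with E47. Experiment 2 was highest and experiment 3 lowest with both constructs, a difference of -1.01 between experiments 3 and 2 (SE 0.12, adjusted p = 0.00892), and the F test had adjusted p = 0.0214. The call was lost without either sample of experiment 2 (adjusted p = 0.156 without the control and 0.150 without E47), without either sample of experiment 3 (0.0793 and 0.0551) and without experiment 2 (0.673) or 3 (0.0648) as a whole. Its second, dim probe set, with values from 3.46 to 4.00, did not pass (adjusted p = 0.682), and the mean over both sets did not pass (0.106).

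Hk2 had 10.67, 10.41 and 10.94 in control replicates 1, 2 and 3 and 10.77, 10.45 and 10.91 with E47. Experiment 3 exceeded experiment 2 by 0.49 (SE 0.10, adjusted p = 0.0462 for that contrast), while the F test had adjusted p = 0.0976. Pdk1 ran the other way, 0.54 higher in experiment 2 than in experiment 1 (SE 0.10, adjusted p = 0.0523, F test 0.0797). Adm was 0.88 higher in experiment 3 than in experiment 2 (adjusted p = 0.0932), a value that includes the low control sample.

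**Figure D4:**
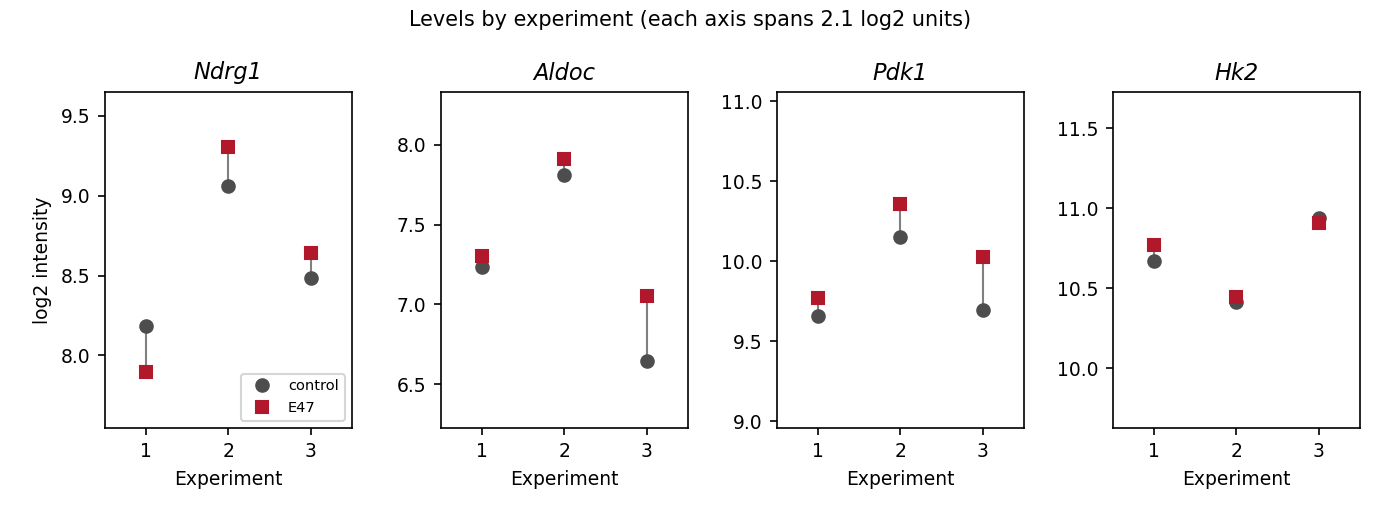
Log2 intensity (y axis) of Ndrg1, Aldoc, Pdk1 and Hk2 by experiment (x axis) in control (circles) and E47 samples (squares), with grey lines joining the 2 samples of an experiment. Experiment 2 is highest for Ndrg1, Aldoc and Pdk1 and lowest for Hk2, and the constructs differ by at most 0.41 within an experiment.

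Other measures moved with the experiments. Foxp3, which defines the Treg lineage, had 6.42, 8.16 and 6.29 in control replicates 1, 2 and 3 and 6.36, 7.83 and 6.07 with E47. The control probe set for the middle of 18S ribosomal RNA had 11.23, 11.88 and 11.82 in control replicates and 11.41, 12.27 and 11.82 with E47, with experiment 1 lowest in both groups, as for Ndrg1. Of 6 stromal and endothelial markers 2 differed between experiments, Pdpn and Pecam1, in opposite directions. Pdpn was low in experiment 2, while Pecam1 was high there, at 5.60 and 5.60 against 4.74 to 5.11 (adjusted p = 0.0325, F test). The summed intensity of the 6 markers was 275 and 303 in experiment 2 and 1051 to 1296 in the others. This sum followed Pdpn, a gene that some T cells also express. The CD8 markers (2 of 2 measured) summed to 209 and 327 in experiment 2 and 140 to 192 in the others, and the NK markers (4 of 5 measured) to 236 and 298 against 152 to 245. Foxp3 (adjusted p = 0.00262), Cd8a (0.0289), Eomes of the NK list (0.0237) and Ms4a1 of the B cell list (0.0491) also passed the F test. Each had its highest mean in experiment 2. The T cell, myeloid and red cell lists held 0 such markers, and 3.20% of all genes passed. The part of these measures in the Ndrg1, Aldoc, Hk2 and Pdk1 values was not tested. In bulk RNA, a change in the share of a cell type and a change in RNA per cell cannot be told apart.

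Other genes of the same pathways were taken from 6 lists, drawn up with earlier results of these data known. Of 35 further genes known to be induced by hypoxia 1 rose with E47, the chemokine receptor gene Cxcr4, by 2.08 on the log2 scale (adjusted p = 0.00571 unpaired, 0.00151 paired), and 0 fell. Over all genes 0.781% rose and 0.363% fell in the paired fit. The list's median was -0.06 and 22 of 35 had a mean below 0, where 57.7% of all genes did. Plin2, a lipid droplet protein, had the lowest p among the others (-0.38, adjusted p = 0.138, paired). Between experiments 5 of the 35 differed, where 3.20% of all genes did, led by the metallothioneins Mt1 and Mt2, which bind metal ions. Mt1 had 9.59, 7.47 and 7.33 in control replicates 1, 2 and 3 and 9.01, 7.39 and 7.03 with E47, so experiment 1 was high in both groups (adjusted p = 0.00327 in the F test). Plod2, a collagen lysyl hydroxylase, was low in experiment 2, at 8.68 and 8.22 against 9.24 to 9.54 in the other samples (adjusted p = 0.0176). Ier3, an early response gene, came next without passing (0.0548).

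The other 5 lists held 0 genes that passed between the constructs in either fit. They were 24 further glycolytic enzymes and transporters (median difference -0.04, with 2 genes at an unadjusted p under 0.05 in the paired fit), 16 oxygen sensing and HIF regulators (-0.03, 1 gene), 14 genes of the pentose phosphate pathway and its branches (0.08, 1 gene), 27 of pyruvate oxidation and the citric acid cycle (0.00, 0 genes) and 22 growth regulators (0.00, 5 genes). Over all genes, 12.0% had an unadjusted p under 0.05 in the paired fit. Of the 16 oxygen sensing and HIF regulators 13 had a mean below 0, where 57.7% of all genes did. The 3 oxygen-sensing genes described earlier all had a mean above 0. Among these 5 lists Foxo1, a transcription factor of quiescent T cells that is restrained by Akt, was nearest to the threshold (0.63, adjusted p = 0.0753, paired). The lowest p of each other list belonged to genes that did not pass either. Fbp2, the muscle fructose bisphosphatase, differed by -0.46 (adjusted p = 0.189) and Siah1a, a ubiquitin ligase, by 0.28 (0.274). Rpia, ribose 5-phosphate isomerase, differed by 0.28 (0.243) and Pdp1, a pyruvate dehydrogenase phosphatase, by -0.19 (0.429), all in the paired fit. Between experiments 3.20% of all genes differed. Of the 24 further glycolytic genes 1 did, the transporter gene Slc2a6, with 7.46 and 7.50 in experiment 2 and 8.35 to 8.58 elsewhere (adjusted p = 0.0118). Bcl6, the transcriptional repressor that directs follicular helper T cells, was the 1 growth regulator that differed, with 6.65 and 6.50 in experiment 2 and 5.33 to 5.91 elsewhere (adjusted p = 0.0397). The genes nearest to the threshold in the F test among those that did not pass were Cited2, a competitor of HIF for its coactivators (0.0524), Eno3, the muscle enolase (0.0718), Txnip, an inhibitor of glucose uptake (0.0906), Pdhx, a part of the pyruvate dehydrogenase complex (0.124), and Gfpt1, the first enzyme of the hexosamine branch (0.197).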

How the data were processed

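RNA of 6 samples was measured on Affymetrix mouse arrays. The authors deposited 1 linear intensity per probe set and array, summarised with RMA (no version named), per the submitters' processing notes. Log2 was taken here. The platform annotation gives 1 gene symbol for 34958 of 45101 probe sets. The 64 control sets stayed out of the tests, and each gene was represented by its brightest probe set (18193 genes). Gpi1 is also an older name of Pigq, which was not used for it. No dim gene was removed.

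Groups came from sample titles. Tests used limma 3.58.1 in R 4.3.3 over all genes, two-sided. P-values were adjusted by Benjamini-Hochberg, and 0.05 was the threshold. The fits were group alone (unpaired), group with experiment (paired), and an F test of the experiment. The design text gives 3 independent experiments with 1 sample per group each. Deviations from group means correlated at 0.275, 0.672 and 0.425 across genes for same-numbered arrays, and between experiments 1 and 3 at 0.250 and 0.179, close to the value within experiment 1. The other 4 pairings lay between -0.516 and -0.336. These 3 fits were also run on simulated data with independent noise, which lack the correlations between arrays given above. The further settings given below were not run on simulated data. The genes and lists were chosen with earlier results of these data known. All 28 measured genes are named, and from each other list up to 3 genes that passed and 1 that did not, by lowest p. Arrays carry no read depth, and 3 per group limit the precision.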

Additional observations from a re-analysis of the deposited data

How the results depend on the processing

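Between constructs, 0 of the 28 genes passed without the block. Vegfa was the 1 gene called with the replicate block, which also held for the random block, for the block with median centring, quantile or cyclic loess normalization, for the block without experiment 1, and without E47 replicate 1 in the unpaired fit. Leaving out arrays gave 0 to 1 genes. Over all genes the count was 45 in the unpaired fit and 208 with the replicate block, 92 with the random block, 205, 249 and 231 with the block after median centring, quantile and cyclic loess normalization, 29 with dim genes removed, and 25 with a pseudocount of 16. Leaving out 1 array or 1 pair gave 5 to 65 genes without the block, and the block without 1 pair gave 41 to 288, with 74 without experiment 2.

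Between experiments, 2 of the 28 genes and 582 of all genes were called. The counts were 5 and 1346 with dim genes removed, 7 and 1814 with limma-trend, 4 and 993 with a pseudocount of 16, and 0 and 118 with the group term dropped. Ndrg1 was the 1 gene called with the mean of probe sets. Without experiment 2, limma called 0 of the 28 and 0 of all genes. Leaving out arrays gave 0 to 4 of the 28 and 0 to 1032 of all genes. Hk2 and Pdk1 joined with dim genes removed, with the pseudocount and with limma-trend, and the cause was not tested. The probe set tests with the block and between experiments were chosen after seeing the data. No called direction reversed in any setting, and in 35 combinations of a gene and a setting a difference that was not called changed sign.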
